A study of Mus musculus with 16 samples.

Results

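The transcripts of the mitochondrial genome were described in 16 bulk RNA sequencing libraries from mice bearing HM1 ovarian tumours. The members are all gene symbols that start with mt-, and 37 of the 55486 symbols in the tables met that rule. They comprise 13 mRNAs, 2 rRNAs and 22 tRNAs, and no mt- symbol was entered more than 1 time in a table. Values are TPM, a relative transcript abundance that is already divided by gene length. Comparison between members is still limited, since some are short, overlap another gene or match a nuclear copy, as described below. The labels give total RNA as the starting material and do not say whether poly(A) selection was used.

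Mitochondrial DNA is a small circular genome that is transcribed from both strands into long precursors, and enzymes encoded in the nucleus then release the rRNAs, mRNAs and tRNAs from them. Its mRNAs encode membrane subunits of the respiratory chain and of ATP synthase, and its rRNAs and tRNAs serve the ribosomes inside the organelle. Copies of mitochondrial DNA have also been inserted into the nuclear genome, and a read from a stretch that the copy shares cannot be assigned to either place by its sequence. In tumours and in infiltrating T cells these transcripts are often read as a sign of respiratory activity, or of cell stress in sequencing quality control.

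The tumour libraries comprised 5 controls and 5 with mannose, a simple sugar given as a supplement. The CD8 libraries, from CD8+ T cells sorted out of HM1 tumours, comprised 3 controls and 3 with mannose. The labels give no strain, age, dose or duration, and leave the animal behind each replicate unnamed. A p-value here therefore describes the spread among the libraries, which may be technical. Nor do they say whether any group received the anti-PD-1 antibody named in the title. The value columns of the 3 CD8 control tables are headed as mannose, and the groups here follow the sample labels. In their use of T cell receptor beta V segments, CD8 control 1 and 2 were nearly alike (Pearson r of the shares of 35 segments 0.999), as were CD8 mannose 1 and 2 (r 0.995), while every other pair lay between 0.267 and 0.763. Results in CD8 cells are therefore also given with each like pair averaged. Among the tumours, control 1 and then mannose 3 had the lowest mean correlation with the others (0.945 and 0.958). Each library had 12345 to 14384 symbols at 1 TPM or more, and read depth is unknown.

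The sorted libraries carried the T cell identity of their label, with Cd8a at 570 to 591 TPM in controls and 285 to 564 TPM with mannose, against 0.07 to 7.14 TPM in the tumours. They also carried markers of other cells. The 15 macrophage and monocyte markers summed to 4900 to 5225 TPM in CD8 controls and 1636 to 2058 TPM with mannose. In control and mannose tumours that sum was 2403 to 4750 and 3232 to 7221 TPM. The 12 carcinoma and epithelial markers summed to 261 to 579 TPM in CD8 controls and 1748 to 2673 TPM with mannose. In control and mannose tumours those summed to 3678 to 5736 and 3573 to 4552 TPM. In bulk RNA, fewer cells of a type and less RNA per cell cannot be told apart.

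Before any level can be read, the copies have to be described, because 7 mitochondrial genes have a near-identical nuclear copy among the symbols of these tables. These copies are annotated as unprocessed pseudogenes, and all 7 lie on chromosome 1 of the GRCm38 build. The transcripts of Gm10925, Gm28661, Gm28437 and Gm10222 match mt-Atp6, mt-Co2, mt-Co3 and mt-Nd4l without a mismatch over 678, 681, 783 and 294 bases, which is all of each copy. Gm28438 matches mt-Nd3 over 345 bases with 1 mismatch. Gm29216 matches only the last 483 of the 1545 bases of mt-Co1, with 1 mismatch, and Gm28439 matches the first 876 of the 1378 bases of mt-Nd4. Another 8 copies were more diverged and reached at most 0.81 TPM in any library. Sequences are from the GENCODE M21 transcripts, 5′ to 3′, with positions counted from 1 at the first base of the mitochondrial gene.

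The first 60 bases of mt-Co2 are shown with those of its near-identical copy and of a diverged copy, because they show what a read has to tell apart. Capitals mark bases that differ from mt-Co2: the diverged copy carries C25T and G57A here, whereas Gm28661 carries no difference.
mt-Co2: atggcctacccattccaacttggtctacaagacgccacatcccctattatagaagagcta
Gm28661: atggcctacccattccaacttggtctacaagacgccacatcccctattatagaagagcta
Gm13341: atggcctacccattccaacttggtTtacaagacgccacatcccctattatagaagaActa

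The next lines show the single mismatch of the mt-Nd3 copy (T3C, bases 1 to 33) and of the mt-Co1 copy (A1066T, bases 1063 to 1096), each in capitals. Apart from a read that covers one of these bases, the aligned parts of these pairs are the same.
mt-Nd3: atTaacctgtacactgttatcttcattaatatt
Gm28438: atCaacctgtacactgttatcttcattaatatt
mt-Co1: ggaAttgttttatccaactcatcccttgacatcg
Gm29216: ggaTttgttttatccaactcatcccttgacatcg

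Mitochondrial genes also overlap each other, as the end of mt-Atp8 and the start of mt-Atp6 show. The 43 bases in capitals belong to both genes, out of only 204 bases of mt-Atp8, and a read inside them counts for either. The overlap of mt-Nd4l with mt-Nd4 is 7 bases.
mt-Atp8 end: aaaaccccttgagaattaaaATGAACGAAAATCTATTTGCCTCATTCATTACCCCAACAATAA
mt-Atp6 start: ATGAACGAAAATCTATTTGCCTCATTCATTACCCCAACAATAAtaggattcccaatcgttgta

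Most of the TPM of the genes whose whole length is copied stood under the name of the copy. Of the combined level of mt-Co3 and Gm28437, between 0.147% and 8.58% was listed under mt-Co3 (median 3.38% over 16 libraries). The corresponding medians were 2.40% for mt-Co2 (range 0.595% to 6.63%), 4.77% for mt-Atp6 (2.52% to 7.44%), 14.2% for mt-Nd4l (3.88% to 33.7%) and 17.7% for mt-Nd3 (8.35% to 29.7%). The share was larger where the copy covers only part of the gene. For mt-Co1 it was 65.4% to 95.2%, and mt-Nd4 held 100%, since Gm28439 was listed at 0 in every library.

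**Figure D1:**
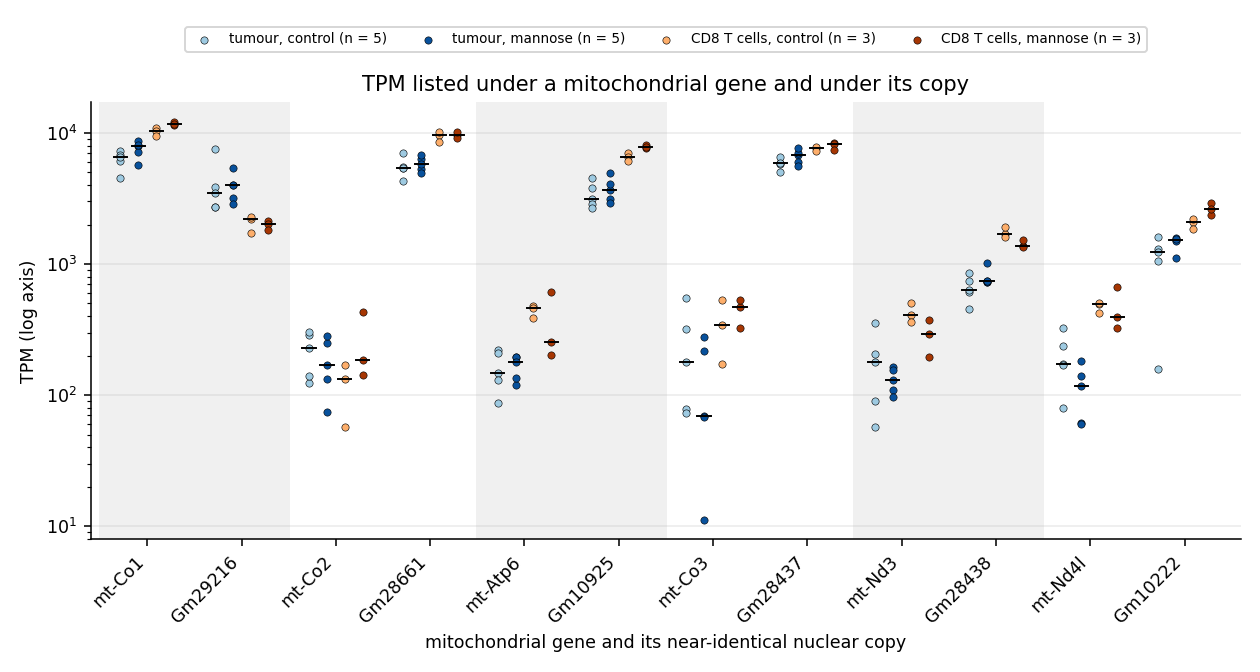
TPM (log axis) of 6 mitochondrial genes and of the near-identical nuclear copy of each, with 1 point per library in 4 groups and a bar at each group's median. Every copy except that of mt-Co1 stood above its gene in all 16 libraries.

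Adding each copy to its gene, weighted by the lengths, narrowed the spread between replicates in most cases. For mt-Co3 the coefficient of variation in control tumours was 83.7% as listed and 8.75% with its copy. That of the copy Gm28437 alone was 9.10%. Where most of a sum is the copy, its spread is near that of the copy, so narrowing by itself does not favour adding them. In CD8 mannose libraries that of mt-Atp6 was 62.9% as listed and 1.96% with its copy, and that of mt-Co2 was 61.8% and 3.96%. The spread was smaller with the copy for 6 of 6 genes in CD8 controls and for 5 of 6 in each of the other groups. The exceptions were mt-Co1 in both mannose groups (15.4% and 15.9% in tumours, 2.55% and 2.69% in CD8 cells) and mt-Nd4l in control tumours (46.6% and 48.4%). In the latter group, tumour control 1 held 236 TPM of mt-Nd4l with its copy against 1205 to 1772 TPM in the other controls. Because genes and copies cannot be separated by their sequence, each result below is given as listed and, where it differs, with the copy added.

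All 22 tRNAs were listed at 0 in all 16 libraries, 352 values in all. Their annotated lengths are 59 to 75 bases, and no level can be given for them. The other 15 members were above 0 in every library. By the level as listed, mt-Atp8, a short subunit of ATP synthase, had the highest median in each group (7784 TPM in control tumours and 20062 TPM in control CD8 cells). It was followed by mt-Co1, the catalytic subunit of cytochrome c oxidase (6600 and 10347 TPM). In the tumours the ranges of these 2 genes overlapped, and in the CD8 cells mt-Atp8 was above mt-Co1 throughout. The rank of mt-Atp8 rests on 204 bases, 43 of which it shares with mt-Atp6, so it is less secure than that of longer genes. The lowest member in tumours was mt-Rnr2, the large-subunit rRNA, at a median of 39.8 TPM in controls.

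The order changed with the copies. As listed, mt-Co2 and mt-Co3, the other cytochrome c oxidase subunits, had medians of 229 and 180 TPM in control tumours, in the lower part of the order. With their copies the medians were 5630 and 5939 TPM, so that the 3 oxidase mRNAs and mt-Atp8 had the highest medians in that group. Of these, mt-Co3 and mt-Co2 overlapped between tumours, as did mt-Co1 and mt-Atp8, and mt-Co1 was above mt-Co3 in all controls. The complex I subunits mt-Nd2, mt-Nd5 and mt-Nd6 had control tumour medians of 326, 236 and 245 TPM with ranges that overlapped from each gene to the next.

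**Figure D2:**
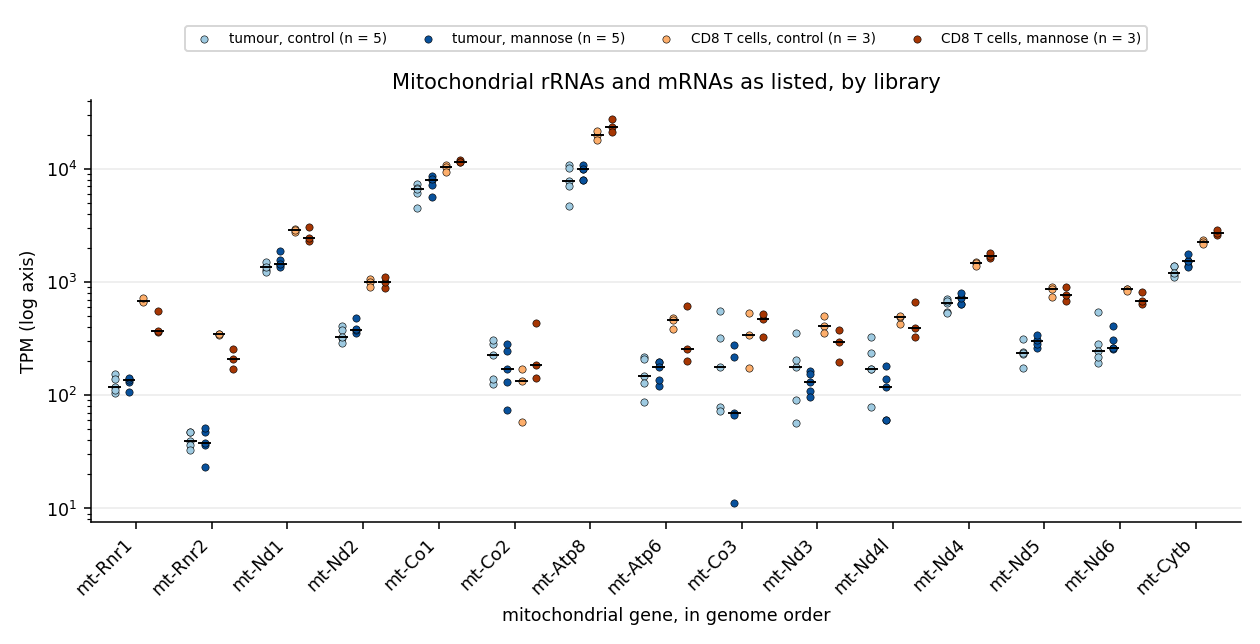
TPM (log axis) of the 2 rRNAs and 13 mRNAs as listed under mt- symbols, in genome order, with 1 point per library in 4 groups and a bar at each group's median. The points of mt-Co2, mt-Atp6, mt-Co3, mt-Nd3 and mt-Nd4l are more scattered within groups than those of mt-Nd1 or mt-Cytb, and the CD8 points of mt-Rnr1 and mt-Rnr2 are far above those of the tumours.

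As a share of all TPM, mitochondrial symbols held more in the sorted CD8 cells than in the tumours. The shares in control tumours 1 to 5 were 1.50%, 2.41%, 2.16%, 1.92% and 1.89%, and in mannose tumours 1 to 5 they were 2.41%, 2.04%, 1.88%, 2.52% and 2.45%. These groups overlapped (1.98% ± 0.338 and 2.26% ± 0.283, SD, n = 5 each), with p = 0.214 by a 2-sided exact permutation test of the log2 share. The CD8 control shares were 4.35%, 4.43% and 3.93%, and the CD8 mannose shares were 4.61%, 5.11% and 4.62%. Every CD8 mannose library was above every CD8 control, and the mean was 1.13-fold higher (exact permutation p = 0.1, the smallest that 3 against 3 allows). With the like pairs averaged, the log2 difference was 0.19 and the exact permutation p was 0.333.

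Control CD8 cells held 2.17-fold the share of control tumours, with no overlap (exact permutation p = 0.0179, the smallest possible here). Over the family of 51 such tests of shares and ratios, the smallest adjusted p was 0.101, so none passed 0.05 after adjustment. Group sizes limit this outcome. Tests of 3 against 3 cannot go below 0.1, so they could not pass whatever the difference. Those between the sources cannot go below 0.0179, so they could pass only if tests in tumours had small p too. Not passing therefore says little about the size of these differences. With CD8 control 1 and 2 averaged, the ratio of the share in control CD8 cells to that in control tumours was 2.13 (exact permutation p = 0.0476, the smallest that 5 against 2 allows). With the copies counted in, the shares were 4.05% ± 0.368 in control tumours and 4.51% ± 0.587 in mannose tumours (SD, n = 5). They were 7.18% ± 0.422 and 7.95% ± 0.266 in the CD8 groups (SD, n = 3), and the ratio of control CD8 cells to control tumours was 1.78. The copies alone held 1.76% to 2.71% of the TPM in tumours and 2.77% to 3.20% in CD8 cells, which is of the same order as the share under mt- symbols.

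**Figure D3:**
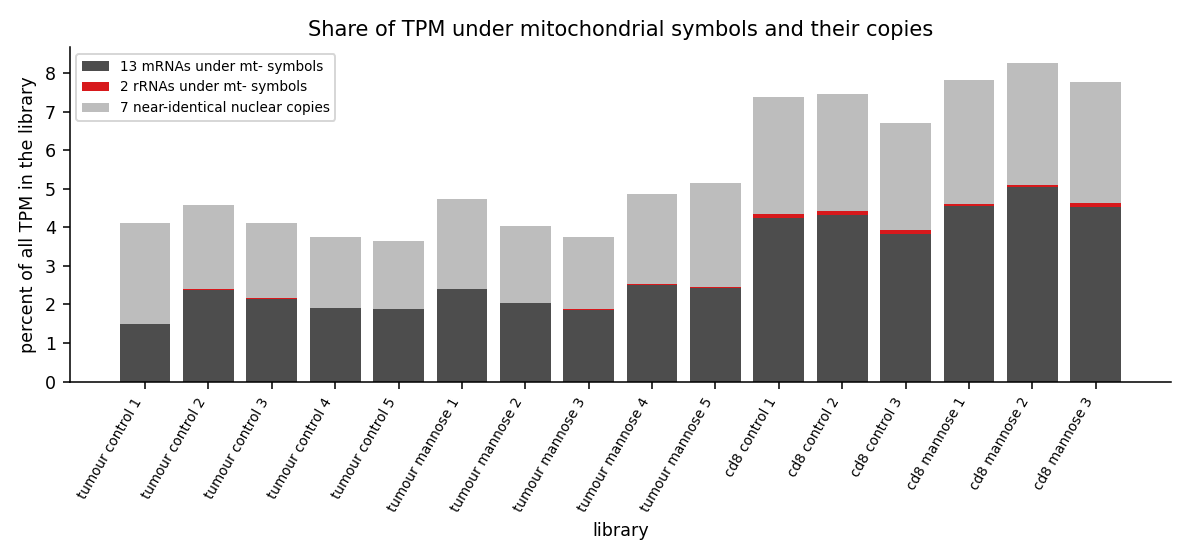
Percent of all TPM in each of the 16 libraries under mitochondrial mRNA symbols, mitochondrial rRNA symbols and their 7 near-identical nuclear copies, stacked. The CD8 bars reach 6.70% to 8.25% and the tumour bars 3.65% to 5.15%, and the rRNA layer is under 0.11% in every library.

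The comparison of mannose with control tumours asked whether the supplement moved these transcripts in the whole tissue. No member passed the test, by limma on log2(TPM + 1) with Benjamini-Hochberg adjustment over 13282 genes. The background was the same, with 0.0% of all genes called in either direction (smallest adjusted p 0.754). Without adjustment, 2 of 15 members and 827 of all genes tested had a p under 0.05. The groups overlapped for all 15 members, against 1.63% of all genes whose groups did not overlap. The median log2 difference over all genes was 0.12, which became -0.00 (-0.0049) under quantile normalization. That over the 15 members was 0.11, or 0.18 with the copies added.

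By role, the complex I subunits whose genes have no near-identical copy lay slightly higher with mannose and did not pass. Levels of mt-Nd1 were 1357 ± 104 TPM in controls and 1530 ± 214 TPM with mannose, and those of mt-Nd2 were 345 ± 46.1 and 396 ± 50.8 TPM (SD, n = 5). For mt-Nd5, one of the 2 members with an unadjusted p under 0.05, the control values were 173, 313, 244, 230 and 236 TPM and the mannose values 304, 262, 283, 309 and 338 TPM. The control values lay below every mannose value except in control 2 (log2 difference 0.34 ± 0.14 SE, limma adjusted p = 0.754).

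The other was mt-Cytb, the only complex III subunit encoded in mitochondria. Its control values were 1153, 1401, 1376, 1102 and 1214 TPM, and its mannose values were 1536, 1399, 1355, 1552 and 1763 TPM. Mannose 1, 4 and 5 were above all controls, and the other two lay among them (log2 difference 0.28 ± 0.10 SE, limma adjusted p = 0.754). Neither mt-Rnr1, the small-subunit rRNA (126 ± 20.4 and 131 ± 14.2 TPM), nor mt-Rnr2 (40.9 ± 6.61 and 39.2 ± 10.9 TPM) passed (SD, n = 5), and their log2 differences were 0.06 and -0.09.

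For mt-Co3 and mt-Nd4l the direction depended on the copies. As listed, mt-Co3 stood at 555, 180, 78.8, 72.9 and 321 TPM in controls and at 277, 69.6, 67.6, 217 and 11.2 TPM with mannose, a log2 difference of -1.15. With its copy the group means were 6063 ± 531 and 6717 ± 826 TPM (SD, n = 5), a log2 difference of 0.14. The log2 difference of mt-Nd4l, a complex I subunit, was -0.80 as listed and 0.57 with its copy, or 0.04 with its copy when the low tumour control 1 was left out. Those of mt-Co2 were -0.31 and 0.07. None of these passed, and the intervals were wide as listed: the 95% interval of mt-Co3 ran from -2.94 to 0.65, and with its copy from -0.10 to 0.38.

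In CD8 cells, both mitochondrial rRNAs fell with mannose while mt-Cytb and mt-Nd4 rose. Of the 15 members, 2 were called higher against a background of 23.2% of 14280 genes, and 2 were called lower against 11.7%. The groups did not overlap for 6 of 15 members as listed and 9 of 15 with the copies, while 51.4% of all genes did not overlap. No member was called with each like pair averaged, where 2 members had an unadjusted p under 0.05 and 7.81% of genes were still called higher and 3.87% lower. The median log2 difference was 0.09 over all genes and -0.10 over the members. Scaling moved the former to -0.03 (quantile) and 0.01 (median-ratio), with 0 members called higher under either and 2 and 3 lower. All genes then split into 2673 higher and 2305 lower and into 2733 and 2330, against 3306 and 1674 without it.

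Levels of mt-Rnr1 were 681, 672 and 716 TPM in CD8 controls 1 to 3 and 360, 373 and 559 TPM in CD8 mannose 1 to 3. Every mannose library was below every control, with mannose 3 the nearest to them, and the fall was 0.71 ± 0.17 on the log2 scale (SE, n = 3, limma adjusted p = 0.0178). Levels of mt-Rnr2 were 349, 344 and 350 TPM in controls and 170, 210 and 258 TPM with mannose. The controls lay within 6 TPM of each other and again above every mannose library (log2 difference -0.73 ± 0.14 SE, limma adjusted p = 0.00966). Relative to the median of all genes the falls were -0.80 and -0.82, and both rRNAs were called lower under quantile and median-ratio scaling too.

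The mt-Rnr2 call held with each library left out in turn (adjusted p from 0.00285 to 0.0418), and the adjusted p was 0.0723 with the like pairs averaged. The mt-Rnr1 call was lost without CD8 control 1, control 2, control 3, mannose 1 or mannose 2 (adjusted p from 0.0519 to 0.0726), and with the like pairs averaged (adjusted p = 0.130). Relative to 100 TPM of mitochondrial mRNA and copies, the 2 rRNAs held 1.45, 1.41 and 1.66 TPM in controls and 0.698, 0.727 and 1.08 TPM with mannose (exact permutation p = 0.1, the smallest possible, 0.213 adjusted over the family). Since poly(A) selection is not stated, how far these values follow rRNA in the cells is unknown.

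**Figure D4:**
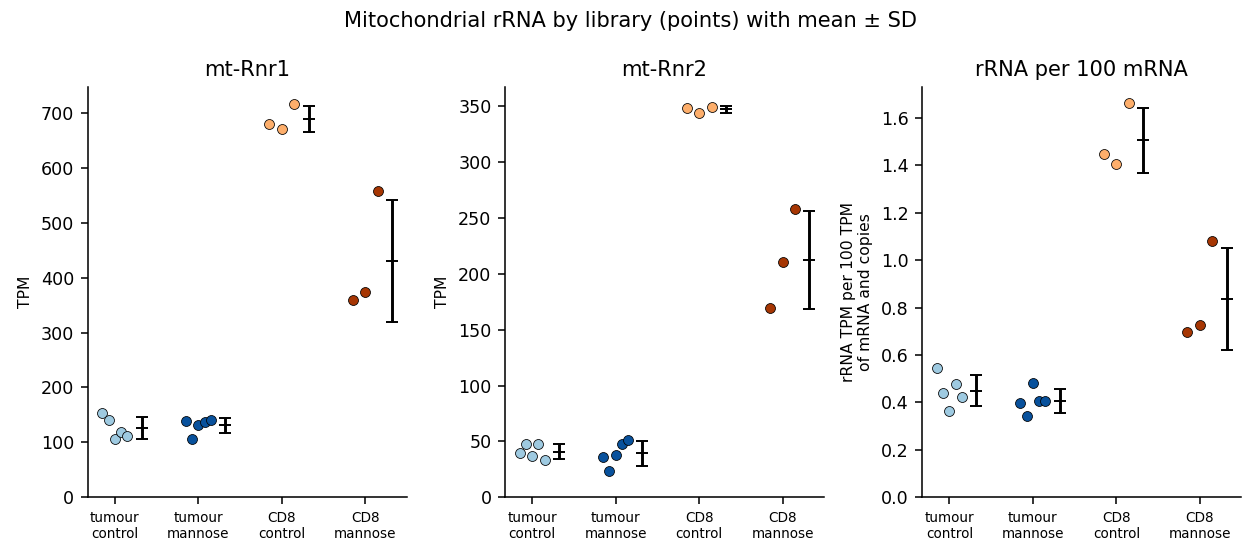
TPM of mt-Rnr1 and mt-Rnr2 and the summed rRNA per 100 TPM of mitochondrial mRNA and copies, with 1 point per library and the mean ± SD of each group beside it. The CD8 mannose points lie below the CD8 control points in all 3 panels, and the tumour groups overlap.

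Several sets of markers also differed between the same CD8 groups. All mannose libraries were below all controls for 15 of 15 macrophage and monocyte markers, whose summed ranges are given above. Over all genes, 51.4% did not overlap between these groups in either direction, the share to set beside each marker count here. The 15 CD8 T cell markers summed to 7368 to 7991 TPM in controls and to 3791, 4762 and 7254 TPM in mannose 1 to 3, and 11 of 15 were below every control in all mannose libraries. Mannose 3 had the highest T cell marker sum and the highest rRNA level of its group. The macrophage and monocyte sums were 2057.8, 1635.5 and 1664.5 TPM in mannose 1 to 3, highest in mannose 1, where both rRNAs were lowest. Carcinoma and epithelial sums were 2673, 2292 and 1748 TPM in mannose 1 to 3. Neutrophil sums were 475, 370 and 275 TPM and fibroblast sums 493, 487 and 313 TPM in the same order. These orders rest on 3 libraries, and their relation to the rRNAs was not tested. Of 9 neutrophil markers, 6 were lower in every mannose library (sums of 1052 to 1273 and 275 to 475 TPM). Of 9 fibroblast markers, 8 were higher (61.2 to 174 and 313 to 493 TPM). Of the 12 epithelial markers, 6 were higher and 1 was lower in every mannose library. Among them Krt8 was at 90.4 to 219 TPM in controls and 674 to 1050 TPM with mannose, and Epcam at 0.65 to 0.91 and 0.27 to 0.87 TPM. Of 20 small RNAs with little or no poly(A) tail, 19 were listed for both sources, and a symbol not listed for a source counted as 0. The 20 summed to 1181 to 1298 TPM in controls and 1517 to 1701 TPM with mannose. Only 1 of the 20 was above every control in all mannose libraries, 10 were at 0 in all controls and 11 in all mannose libraries, and 1 of the 6 tested was called (higher). B cell markers summed to at most 2.54 TPM, with 2 of 6 at 0 in all libraries of either group. The part of these differences in the result was not tested.

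Among the CD8 mRNAs, mt-Cytb was at 2378, 2282 and 2154 TPM in controls and 2621, 2700 and 2897 TPM with mannose. All mannose libraries were above all controls, by 0.27 ± 0.08 on the log2 scale (SE, limma adjusted p = 0.0375), or 0.18 relative to the median of all genes. The complex I subunit mt-Nd4 was at 1514, 1466 and 1401 TPM in controls and 1632, 1716 and 1822 TPM with mannose (log2 difference 0.24 ± 0.08 SE, limma adjusted p = 0.0492). Both calls were near the threshold, and each held only without mannose 3 among the fits that leave out 1 library (adjusted p from 0.0625 to 0.118 for mt-Cytb and 0.0639 to 0.143 for mt-Nd4 in the others). With the like pairs averaged, adjusted p was 0.177 and 0.200. Under quantile normalization neither was called (log2 differences of 0.14 and 0.18), and under median-ratio scaling neither was (0.18 and 0.15).

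The other complex I mRNAs without a near-identical copy did not pass in CD8 cells. Log2 differences were -0.15 for mt-Nd1, 0.00 for mt-Nd2 and -0.10 for mt-Nd5, and mt-Nd1 was called lower without mannose 3 (-0.27, limma adjusted p = 0.0161). For mt-Nd6, the only protein gene on the light strand, levels were 870, 864 and 841 TPM in controls and 643, 684 and 815 TPM with mannose. All mannose libraries were below all controls, with a log2 difference of -0.27 ± 0.10 (SE, limma adjusted p = 0.0734) that passed without mannose 3 (adjusted p = 0.00558) and under median-ratio scaling (adjusted p = 0.0197). Of the oxidase and ATP synthase mRNAs, mt-Co1 was at 10812, 10347 and 9406 TPM in controls and 12070, 11511 and 11606 TPM with mannose, without overlap but without passing (limma adjusted p = 0.121). The mean of mt-Atp8 was 19945 ± 1893 TPM in controls and 23936 ± 3190 TPM with mannose (SD, n = 3), which did not pass (limma adjusted p = 0.173).

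The members with a fully copied gene changed most in CD8 cells when the copy was added. The log2 difference of mt-Co2 was 1.03 as listed (58, 134 and 171 TPM in controls; 185, 431 and 141 TPM with mannose) and 0.05 with Gm28661. That of mt-Co3 was 0.45 as listed and 0.10 with its copy. For mt-Atp6 it was -0.47 as listed and 0.24 with its copy, so that the direction turned, and for mt-Nd4l it was -0.10 and 0.30. None of these 4 genes passed either way in the fit as designed. With array weights, mt-Co2 (1.81, limma adjusted p = 0.00531) and mt-Nd4l (-0.48, adjusted p = 0.0246) were called as listed, and mt-Atp6 (0.23, adjusted p = 0.00460) and mt-Nd4l (0.30, adjusted p = 0.00503) with their copies. With its copy, mt-Nd4l was also just past the threshold at a pseudocount of 5 (adjusted p = 0.0496) and over a total of nuclear genes (0.0498). As listed, mt-Atp6 was called lower without mannose 2 (-0.95, limma adjusted p = 0.0169) and mt-Nd4l without mannose 3 (-0.40, adjusted p = 0.0361). With their copies, mt-Atp6 was called higher without mannose 3 (0.26, adjusted p = 0.0313) and mt-Nd4l without mannose 1 (0.38, adjusted p = 0.0353).

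With its copy added, mt-Nd3, a complex I subunit, did pass. Its levels were 2075, 2272 and 2083 TPM in controls and 1549, 1628 and 1890 TPM with mannose, all below the controls. It fell by 0.35 on the log2 scale (SE 0.10, limma adjusted p = 0.0310), and as listed the difference was -0.59 (adjusted p = 0.103, and 0.0286 without mannose 3). The call held without mannose 3 (adjusted p = 0.00543) and was lost without any other library (adjusted p from 0.0692 to 0.114) and with the like pairs averaged (adjusted p = 0.217). The copies themselves included 1 called gene, Gm10222, which rose by 0.37 ± 0.11 (SE, log2 scale, limma adjusted p = 0.0354), and Gm28438 did not pass (log2 difference -0.29, adjusted p = 0.0575).

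**Figure D5:**
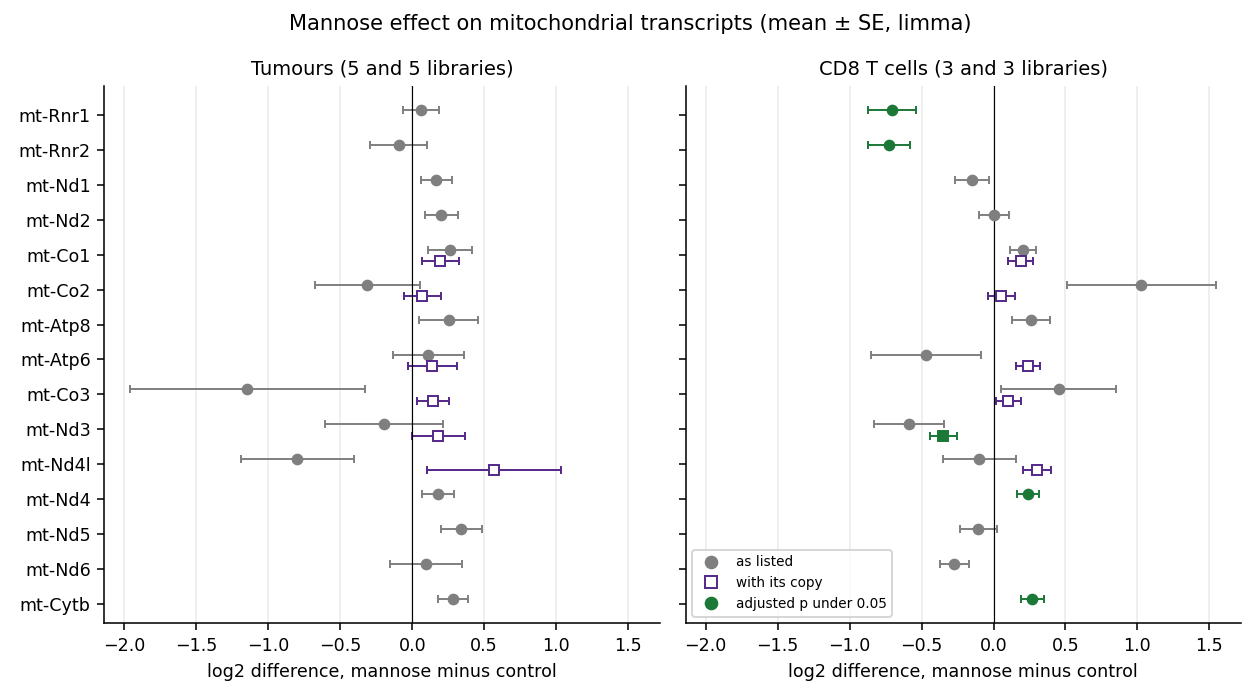
Log2 difference between mannose and control with its SE from limma for the 15 members, in tumours and in CD8 cells, as listed (circles) and with the near-identical copy added (squares), where filled green marks an adjusted p under 0.05. The SE of mt-Co2, mt-Co3, mt-Atp6 and mt-Nd3 are wider as listed than with the copy in both panels, and the green symbols are in the CD8 panel.

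The difference between the mannose effect in CD8 cells and that in tumours was tested in a fit of all 16 libraries. Of the members, mt-Rnr1 was called, with an effect lower by 0.77 in CD8 cells (log2 difference -0.77 ± 0.22 SE, limma adjusted p = 0.0217). The background of that test was 18.7% of 15498 genes called in either direction. The call was lost without CD8 control 3 (adjusted p = 0.0574), mannose 1 (0.0785) or mannose 2 (0.0704), and under quantile normalization (0.0893) and median-ratio scaling (0.0851). With the like pairs averaged no member was called, and mt-Rnr1 was at -0.68 (adjusted p = 0.114). For mt-Rnr2 the difference was -0.63 (adjusted p = 0.160, and 0.0272 without tumour mannose 2), and with the copies added mt-Rnr1 was again the 1 member called.

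Control CD8 cells were then compared with control tumours, which differ in cell source and also in the set of symbols that their tables hold. Macrophage and monocyte markers summed to 4900 to 5225 TPM in the control CD8 libraries and 2403 to 4750 TPM in control tumours. Neutrophil markers summed to 1052 to 1273 and 637 to 838 TPM, and carcinoma and epithelial markers to 261 to 579 and 3678 to 5736 TPM. The part of these other cells in the differences between the sources was not tested. By limma, 13 of 15 members were higher in CD8 cells against a background of 37.7% of 14487 genes, and 0 were lower against 27.1%. The groups did not overlap for 13 of 15 members as listed and 15 of 15 with the copies, while 64.4% of all genes did not overlap. The median log2 difference over all genes was 0.18 and became -0.07 under quantile normalization, where 11 members were called higher and 1 lower, with 4828 of all genes higher and 5270 lower against 5459 and 3930. Under median-ratio scaling the median was 0.03, with 12 members higher, 0 lower, and 5149 and 4715 of all genes. With CD8 control 1 and 2 averaged, 12 members were called higher and 0 lower, and 13 and 0 with the copies, against 32.5% and 23.6% of 14923 genes.

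The largest difference in TPM was that of the rRNAs. Levels of mt-Rnr2 in control tumours were 39.8, 47.6, 36.6, 47.7 and 33.0 TPM, against the 344 to 350 TPM of control CD8 cells, an 8.40-fold difference (log2 difference 3.07 ± 0.15 SE, limma adjusted p = 1.96e-07). Those of mt-Rnr1 were 154, 140, 105, 119 and 112 TPM, and the CD8 level was 5.49-fold higher (log2 difference 2.46 ± 0.14 SE, limma adjusted p = 6.17e-07). Each CD8 library, with or without mannose, was above every tumour for both rRNAs. The rRNAs differed more than the mRNAs, since rRNA per 100 TPM of mRNA and copies was 0.450 ± 0.0668 in control tumours (SD, n = 5) and 1.51 ± 0.138 in control CD8 cells (SD, n = 3; exact permutation p = 0.0179, the smallest possible, 0.101 adjusted over the family). The labels leave poly(A) selection open, so these values may not follow rRNA levels in the cells. The part of library preparation in this difference was not tested.

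Among the mRNAs, the complex I subunit mt-Nd5 differed most as listed, at 841.5 ± 87.9 TPM in CD8 controls (SD, n = 3) against 239 ± 49.7 TPM in tumours (SD, n = 5), a log2 difference of 1.83. The log2 differences of mt-Nd1, mt-Nd2, mt-Nd4 and mt-Nd6 were 1.08, 1.53, 1.23 and 1.64. That of mt-Cytb was 0.87 and that of mt-Atp8 1.36. The smallest called difference was that of mt-Co1 (0.71, limma adjusted p = 0.00321), which was not called under quantile normalization (adjusted p = 0.0535), nor with its copy under either scaling (adjusted p of 0.333 and 0.160). The call of mt-Nd3 (1.50) was lost without any 1 of the CD8 controls (adjusted p from 0.0514 to 0.0891), with CD8 control 1 and 2 averaged (0.0575), under quantile normalization (0.0516) and median-ratio scaling (0.0617), and with no filter (0.0595).

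As listed, mt-Co2 was the exception in direction, at 120.7 TPM on average in CD8 cells and 217 TPM in tumours (log2 difference -0.89, limma adjusted p = 0.0766). It was called lower without tumour control 3 (adjusted p = 0.0407) or without CD8 control 3 (adjusted p = 0.0455). With Gm28661 added, its levels were 9490 ± 786 TPM in CD8 cells (SD, n = 3) and 5734 ± 951 TPM in tumours (SD, n = 5), and it was called higher (log2 difference 0.74 ± 0.15 SE, limma adjusted p = 0.00170, and 0.0826 under median-ratio scaling). With the copies, mt-Co3 was also called higher (0.39, adjusted p = 0.0126), lost without CD8 control 1 or control 2 (adjusted p of 0.0552 and 0.0574), with these 2 averaged (0.0552) and under median-ratio scaling (0.403). Conversely, mt-Nd4l with its copy did not pass (1.26, adjusted p = 0.0806), and it did without tumour control 1 (0.73, adjusted p = 0.00155).

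The proportions of the mRNAs also differed between the sources. With the copies added, cytochrome c oxidase mRNAs made up 52.3% ± 4.16 of mitochondrial mRNA in control tumours (SD, n = 5) and 40.9% ± 0.411 in control CD8 cells (SD, n = 3), without overlap. Complex I mRNAs made up 13.3% ± 1.04 and 16.9% ± 0.497, and ATP synthase mRNAs 31.0% ± 3.47 and 38.9% ± 0.821. Most of the latter was the short mt-Atp8 (means of 21.5% and 28.8% of mitochondrial mRNA), whose level is hard to set against those of longer genes. The single complex III mRNA held 3.36% ± 0.175 and 3.29% ± 0.111, and its groups overlapped. Exact permutation p was 0.0179 for the oxidase and for complex I, 0.0357 for ATP synthase and 0.589 for complex III, and none passed 0.05 after adjustment over the family (0.101, 0.101, 0.152 and 0.712). As above, the group sizes allow no exact permutation p below 0.0179 here, which limits what the adjustment can show. As listed, the picture was not the same for each complex. The oxidase held 34.9% ± 3.60 in control tumours (SD, n = 5) and 25.8% ± 0.962 in control CD8 cells (SD, n = 3), again without overlap (exact permutation p = 0.0179). For complex I the 17.0% ± 3.18 and 19.2% ± 1.11 overlapped (exact permutation p = 0.25), and for complex III the 6.50% ± 0.807 and 5.51% ± 0.201 did not (exact permutation p = 0.0357). ATP synthase held 41.6% ± 5.79 and 49.4% ± 1.84, without overlap (exact permutation p = 0.0536). Within the tumours and within the CD8 cells, the oxidase, complex I and ATP synthase proportions overlapped between mannose and control. Complex III, that is mt-Cytb, held 3.64% ± 0.179 in mannose tumours (SD, n = 5), where the groups overlapped (exact permutation p = 0.0476, 0.187 adjusted over the family), and 3.55% ± 0.254 in CD8 mannose libraries (SD, n = 3), all above the controls (exact permutation p = 0.1). As listed it overlapped between mannose and control in both sources (exact permutation p = 0.429 and 0.4).

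The level of mt-Nd6, the only protein gene on the light strand, was set against that of the other mRNAs. Strand-specific counts were not used, so this is a ratio of gene levels. Per 100 TPM of the other mRNAs with copies, mt-Nd6 held 1.24, 1.21 and 1.33 TPM in CD8 controls and 0.856, 0.859 and 1.09 TPM with mannose, all lower with mannose (exact permutation p = 0.1, the smallest possible). In control tumours the values were 1.55, 0.666, 0.635, 0.558 and 0.639 TPM. Control 1 stood far above the other tumours there, and 0.588 to 0.871 TPM was measured with mannose (exact permutation p = 0.937, and 0.143 without control 1).

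The nuclear genes that make and use these transcripts were read from lists, with counts set beside the same backgrounds as above. In tumours 0 genes were called in any of them. In CD8 cells with mannose, 30 of 184 genes (16.3%) were called higher and 1 lower in the 6 lists of mitochondrial gene expression, against 23.2% of all genes higher and 11.7% lower. In the nuclear-encoded respiratory chain 0 were higher and 8 of 58 (13.8%) lower. The split of the former depended on the scaling. Under quantile normalization it was 12 higher and 11 lower, and under median-ratio scaling 16 higher and 7 lower. Of all genes, 18.7% were higher and 16.1% lower under the first, and 19.2% and 16.3% under the second. With the like pairs averaged, 1 gene was called higher in all of these lists and 0 lower, against 7.81% and 3.87% of all genes.

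That gene was Mrpl38, a large-subunit protein of the mitochondrial ribosome, at 22.4 ± 3.34 TPM in CD8 controls and 40.8 ± 1.50 TPM with mannose (SD, n = 3; log2 difference 0.84, limma adjusted p = 0.00362, and 0.0359 with the like pairs averaged). Proteins of this ribosome, which bind the 2 rRNAs, had 15 of 79 genes (19.0%) higher and 1 lower, a share of higher calls below that of all genes. The median over the list was 0.05, against 0.09 for all genes, and it was -0.01 under quantile and -0.03 under median-ratio scaling. The next largest rise was Mrpl50 (0.71), and Mrps18c was the gene called lower (-0.35). Both were lost without CD8 control 2, control 3, mannose 1 or mannose 2. Without mannose 1 or without mannose 2 the list had 4 higher and 0 lower, and without mannose 3 it had 16 and 5. The calls over all genes moved likewise. They were 13.9% higher and 6.99% lower without mannose 1, 13% and 6.09% without mannose 2, and 24.4% and 17% without mannose 3.

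For transcription of mitochondrial DNA, 1 of 9 genes was called higher and 0 lower. It was Polrmt, the mitochondrial RNA polymerase, at 9.86 ± 2.23 and 15.1 ± 1.32 TPM (SD, n = 3; log2 difference 0.59, limma adjusted p = 0.0339). The call was lost without CD8 control 1, control 2, mannose 1 or mannose 2, and under both scalings (adjusted p of 0.142 and 0.0714). Tfam, which packages mitochondrial DNA and starts transcription, did not pass (37.8 ± 2.00 and 31.3 ± 3.61 TPM, SD, n = 3; limma adjusted p = 0.0990).

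Of 12 replication genes 4 were higher and 0 lower. Twnk, the replicative helicase, rose by 0.70 on the log2 scale, a call that held with each library left out, and Top1mt, a topoisomerase, rose by 0.65, a call lost without CD8 control 1, control 2, mannose 1 or mannose 2. For RNA cleavage, stability and decay, 2 of 22 were higher and 0 lower. Grsf1, a protein of the RNA granules, rose by 0.52, held with each library left out, and Hsd17b10, a subunit of the RNase P that cuts at tRNAs, rose by 0.62, lost without mannose 1 or mannose 2. The mRNA-stabilising Lrpprc and Slirp, the poly(A) polymerase Mtpap, the exonuclease Pnpt1 and Fastkd5 were not called, with log2 differences between -0.15 and 0.27.

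Of 29 rRNA and tRNA modification genes 3 were higher, with the GTPases Noa1 (0.55) and Gtpbp3 (0.55) the largest. Of 33 translation factors 5 were higher, with Mtres1 (0.70) and the ribosome recycling factor Mrrf (0.66) the largest, and neither list had a gene called lower. Noa1 held with each library left out but not under quantile normalization (adjusted p = 0.0642). Gtpbp3 and Mtres1 were each called without mannose 3 and in no other left-out fit, and Mrrf was called without CD8 control 2 or control 3 only. Quantile normalization also ended the calls of these 3 and of Mrpl50 and Top1mt (adjusted p from 0.0550 to 0.174), and median-ratio scaling those of Gtpbp3 and Mtres1 (0.0956 and 0.0557).

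In the nuclear-encoded respiratory chain, 0 of 58 genes were higher and 8 lower, with a median of -0.10 that became 0.01 under quantile normalization, where 4 were higher and 6 lower. Cox5a and Cox5b, nuclear subunits of the oxidase, fell by 0.57 and 0.54 on the log2 scale (limma adjusted p of 0.0280 and 0.00989). Cox5b was called with each library left out, and Cox5a was lost without CD8 control 2, control 3, mannose 1 or mannose 2. Of the 7 regulators of biogenesis tested, Myc rose (0.88), a call lost without CD8 control 3, mannose 1 or mannose 2, and Gabpb1, a subunit of nuclear respiratory factor GABP, fell (-0.46), also with each library left out. Neither was called with the like pairs averaged (adjusted p of 0.104 and 0.0777). The epithelial, T cell and macrophage marker sums given above moved between the same groups, and their part in these counts was not tested.

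Between the sources, 5 of 79 mitochondrial ribosome proteins (6.33%) were higher in control CD8 cells and 45 (57.0%) lower, with a median log2 difference of -0.45. Of the nuclear-encoded respiratory chain, 6 of 58 (10.3%) were higher and 26 (44.8%) lower, with a median of -0.18. Over all genes tested 37.7% were higher and 27.1% lower, with a median of 0.18. Under quantile normalization the counts of the 2 lists were 0 and 53 and 4 and 29, against 33.3% of all genes higher and 36.4% lower. An example is Mrps34, a small-subunit protein, at 109 ± 11.9 TPM in control tumours (SD, n = 5) and 28.4 ± 4.89 TPM in control CD8 cells (SD, n = 3; log2 difference -1.90). Ndufb9 of complex I was at 338 ± 31.7 TPM in tumours (SD, n = 5) and 156 ± 14.1 TPM in CD8 cells (SD, n = 3; -1.11).

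In the other lists that split was smaller or absent, against 37.7% of all genes higher and 27.1% lower. Counts higher and lower were 4 and 3 of 9 for transcription, 4 and 3 of 12 for replication, 6 and 3 of 22 for RNA cleavage, stability and decay, and 6 and 9 of 29 for rRNA and tRNA modification. They were 8 and 7 of 33 for translation factors and 3 and 3 of the 8 biogenesis regulators tested. The medians of these 6 lists ran from 0.01 to 0.32, against 0.18 for all genes. Those of rRNA and tRNA modification (0.01), biogenesis regulators (0.01) and translation factors (0.03) lay below it. That of RNA cleavage, stability and decay was 0.17, and those of transcription (0.32) and replication (0.31) lay above.

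Among the nuclear genes higher in CD8 cells were Mtpap (log2 difference 1.21), Cycs, cytochrome c (0.98), and Tfam, at 20.8 ± 4.99 TPM in tumours and 37.8 ± 2.00 TPM in CD8 cells (SD, n = 5 and 3; 0.86, limma adjusted p = 0.00360, and 0.0551 under quantile normalization). Twnk (-1.46) and Hsd17b10 (-1.47) were lower, as was Polrmt (-0.63), whose call was lost without CD8 control 1 or control 2 and with these 2 averaged (adjusted p = 0.0793).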

How the data were processed

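The deposited tables hold gene symbols and TPM values, 1 table for each library. Tools named in the submitters' processing notes are fastp, HISAT and RSEM, with the build GRCm39 and without versions or roles. Counts were not used here, so depth is unknown, no counting error can be given, and the test laid down for TPM took the place of a count model. Entries that shared a symbol were summed. Genes reaching 1 TPM in a number of libraries equal to the smaller group (3 in the fit of all libraries) were tested with limma 3.58.1 in R 4.3.3, with variance trend, on log2(TPM + 1), threshold 0.05. Fold changes on that scale understate low genes. The fits were tested on simulated data.

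Copies were found with BLAST+ 2.17.0 among GENCODE M21 transcripts (GRCm38): at least 90% identity over 150 bases, and near-identical from 99%. A copy was added as its TPM times its length over that of the mitochondrial gene. No coordinates are given, since the files follow GRCm39. Members, lists and the rule for named genes (all members, a panel of 10 genes, and up to 2 largest rises and falls per list at a mean of at least 5 TPM) were chosen with earlier results of these data known. Of the listed nuclear genes of the respiratory chain, Atp5f1 was not found under its symbol. Same-numbered libraries were not paired, since not every correlation of their deviations exceeded 0.1. Alternatives were the pseudocount (0.1 and 5), no filter, quantile and median-ratio scaling, a total of nuclear genes only, array weights, the replicate block, 1 fit of all libraries, like pairs averaged, and each library left out. The addition of copies, like pairs averaged for shares, for the difference of effects and between the sources, and leaving out tumour control 1 and mannose 3 together were chosen after seeing the data.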

Additional observations from a re-analysis of the deposited data

Results flagged for a closer look

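Of 88 groups of 5 tumour libraries examined, 10 held a library whose gap to its nearest neighbour was large for the range of its group by Dixon's criterion, and chance gives about 1 in 20 (5%). Tumour control 1 gave 4 of them, all as the highest of its group: mt-Nd6 at 543 TPM (next 282), Gm29216, the copy of mt-Co1, at 7581 TPM (next 3892), and mt-Nd6 per 100 TPM of the other mRNAs at 3.83 as listed and 1.55 with copies. Tumour mannose 5 gave 5: it was highest for mt-Nd2 (485 TPM), Gm28438 (1013 TPM) and mt-Nd3 with its copy (1101 TPM), and lowest for Gm10222 (1117 TPM) and mt-Nd4l with its copy (1166 TPM). Tumour mannose 2 was lowest for mt-Rnr1 (106 TPM). Several of the 88 groups share a gene or a copy, so they are not independent, and the count is no test of an excess over 5%.

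The mannose effect on mt-Rnr1 differed between the sources by a test of the difference itself: the effect in CD8 cells was lower than that in tumours, with a log2 difference of -0.77 by limma (adjusted p = 0.0217). The call was lost with the like pairs averaged (-0.68, adjusted p = 0.114), under quantile normalization (0.0893) and median-ratio scaling (0.0851), and without CD8 control 3 (0.0574), mannose 1 (0.0785) or mannose 2 (0.0704).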

How the results depend on the processing

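Of the results that answer a comparison, 285 alternative values kept the direction and the side of the threshold, 39 moved, 5 turned and 1 passed anew. Of the single genes, 1109 stayed, 71 lost and 33 gained a call, and 25 turned. In CD8 cells 4 members were called as listed and 5 with copies. As listed, 2 were called with no filter, 2 under quantile normalization, 2 in 1 fit of all libraries, 12 with array weights and 0 with like pairs averaged. With copies the counts were 2, 3, 2, 12 and 0. Of all genes, 10.2% were higher and 4.58% lower with no filter, 18.7% and 16.1% under quantile normalization, and 17.7% and 8.12% in 1 fit. Array weights called 35.8% and 24.6% of all genes, and like pairs averaged 7.81% and 3.87%. Leaving out 1 library gave 1 to 8 members either way, with 13% to 24.4% of all genes higher and 6.09% to 17% lower. For the difference of effects, with 1 called, quantile and median-ratio scaling and like pairs averaged gave 0, array weights 5 and leaving out 1 library 0 to 2, also with copies. Of all genes, array weights called 22.4% higher and 18.4% lower in that test, against 11% and 7.64% without them.

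Leaving out 1 tumour turned the log2 difference of the rRNA share in tumours (-0.029 to 0.12) and of the mt-Nd6 ratio with copies (-0.18 to 0.19). Between the sources that ratio differed by 0.65 to 1.01, with exact permutation p = 0.0286 without tumour control 1.

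Single genes that turned were not called under the setting named. On the log2 scale, median-ratio scaling gave in tumours -0.0039 for mt-Atp6, -0.020 for mt-Nd6, -0.051 for mt-Rnr1 and -0.044 for mt-Co2 with its copy, and in CD8 cells -0.084 for mt-Nd2 and -0.034 for mt-Co2 with its copy. Quantile normalization gave in CD8 cells 0.13 for mt-Nd4l, 0.11 for mt-Nd5 and -0.024 for mt-Co3 with its copy. Array weights gave 0.52 for mt-Nd3 in tumours and, in CD8 cells, 0.29 for mt-Atp6, -0.032 for mt-Nd2 and -0.047 for mt-Co2 with its copy. With like pairs averaged, mt-Nd4l was at 0.03. Without tumour control 1 and mannose 3 together, mt-Nd3 was at 0.052. With 1 tumour left out, the ranges were -0.086 to 0.25 for mt-Atp6, -0.53 to 0.12 for mt-Nd3, -0.034 to 0.34 for mt-Nd6, -0.20 to 0.078 for mt-Rnr2 and -0.0047 to 0.16 for mt-Co2 with its copy. With 1 CD8 library left out, they were -0.073 to 0.082 for mt-Nd2, -0.40 to 0.12 for mt-Nd4l and -0.013 to 0.11 for mt-Co2 with its copy. The cause was not tested.

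Replicate numbers were shared between groups, but correlations of the deviations of same-numbered libraries ran from -0.51 to 0.28 in tumours and from 0.06 to 0.16 in CD8 cells, and not every library correlated best with its own number. With the replicate number as a block, 0 members were called in tumours, 3 in CD8 cells (0 higher, 3 lower), 1 for the difference of effects and 13 between the sources. With copies these counts were 0, 4, 1 and 14. Of all genes, the block fit called 22.1% higher and 11.8% lower in CD8 cells. The shares were 9.47% and 6.62% for the difference of effects, and 32% and 20.8% between the sources.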
